A study of Mus musculus with 34 samples.

Results

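The genes described here are 34 genes of cholesterol and fatty acid synthesis, chosen by symbol from the 25124 transcripts that each of the 5 deposited tables lists. All 34 were found in every table. They comprise 7 genes of the mevalonate steps, 11 of the later sterol steps, 5 that control the SREBP transcription factors, 6 of fatty acid synthesis and 5 of sterol transport and efflux. Their expression was measured by total RNA sequencing of mouse C127l adenocarcinoma cells in which the endogenous glucocorticoid receptor (GR) gene was knocked out (GRKO) and a GFP-tagged mouse GR (GFP-mGR) was introduced. The study concerned how GR molecules assemble into multimers, and compared 4 substituted receptors with the wild-type one. Cells carrying GR P631A, GR W718E or GR P643A gave 3 libraries after dexamethasone and 3 after vehicle. Cells carrying GR W718S/Y722S gave 5 and 5, and cells carrying wild-type GR (WT) gave 3 and 3, which makes 34 libraries. Dexamethasone (Dex), a synthetic glucocorticoid, was given at 100 nM for 2 h, and all cells had spent the previous 24 h in medium with 10% charcoal-stripped serum. Stripped serum is low in steroids and other lipids, in the treated and the vehicle cells alike. Each receptor stands for 1 cell line, so a receptor substitution and any other difference between lines cannot be told apart. Nothing in the labels says that replicates came from separate cultures, and the p-values therefore measure only how far these libraries spread, which may be technical. The labels do not give the promoter that drives the receptor.

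Cells make cholesterol from acetyl-CoA through mevalonate and squalene, and make fatty acids from the same precursor through malonyl-CoA. The SREBP factors, encoded by Srebf1 and Srebf2, are held in the endoplasmic reticulum with their escort Scap by the Insig proteins while sterols are plentiful. When sterols are scarce they move to the Golgi, are cleaved, and switch on most of the enzymes of both pathways together with Insig1 itself. The sterol efflux pumps Abca1 and Abcg1 are governed by the oxysterol-sensing liver X receptors. Glucocorticoids are known to influence lipid synthesis in liver and fat.

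Promoter sequence is shown first for the members that were called with Dex and carry at least 1 of the 4 motifs searched. Every promoter shown therefore holds a motif by choice. A RefSeq window (GRCm38.p6, the mm10 build of the tables), 250 bases before to 50 after the start, was matched for 26 of the 34 members. Abcg1, Fdft1, Fdps, Npc1, Scd1, Scd2, Sqle and Stard4 had no matched entry. The 250 bases before the start are given 5′ to 3′ on the gene's strand, with motif matches in capitals. For Insig1 they lie at chr5:28071162-28071411 on the plus strand, for Fasn at chr11:120824548-120824797 on the minus strand, and for Lss at chr10:76531355-76531604 on the plus strand.
Insig1: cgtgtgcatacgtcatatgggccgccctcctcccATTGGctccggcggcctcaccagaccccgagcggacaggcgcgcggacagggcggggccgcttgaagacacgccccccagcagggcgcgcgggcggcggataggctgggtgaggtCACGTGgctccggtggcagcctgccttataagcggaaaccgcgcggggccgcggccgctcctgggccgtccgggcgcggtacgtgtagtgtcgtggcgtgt
Fasn: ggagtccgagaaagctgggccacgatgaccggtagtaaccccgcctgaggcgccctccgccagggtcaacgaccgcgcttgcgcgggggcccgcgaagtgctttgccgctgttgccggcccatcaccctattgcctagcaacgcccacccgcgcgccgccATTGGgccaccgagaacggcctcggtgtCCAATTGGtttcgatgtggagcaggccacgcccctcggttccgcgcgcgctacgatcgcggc
Lss: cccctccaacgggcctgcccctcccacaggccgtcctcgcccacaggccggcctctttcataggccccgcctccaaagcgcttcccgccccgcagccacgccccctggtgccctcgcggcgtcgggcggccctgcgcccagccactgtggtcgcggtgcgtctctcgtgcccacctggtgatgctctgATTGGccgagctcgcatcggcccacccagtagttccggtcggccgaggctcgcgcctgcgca
The capitals in Insig1 mark a CCAAT box (the binding motif of NF-Y) on the reverse strand, 216 to 212 bases before the start, and the E-box CACGTG, 101 to 96 bases before the start. In Fasn they mark 3 CCAAT boxes, of which those at 62 to 58 and 59 to 55 bases before the start overlap on opposite strands, and in Lss 1 box at 62 to 58 bases before the start. Searched on both strands of the 300-base windows, CCAAT was in 17 of the 26 member windows (65.4%) and in 38.8% of all 18353 windows. CACGTG was in 5 member windows (19.2%) and in 8.13% of all windows. The sterol regulatory element core TCACNCCAC was in 1 member window, that of Hmgcs1 (3.85%), and in 1.18% of all windows. The glucocorticoid response element core ACANNNTGT was in 1 member window, that of Acat2 (3.85%), and in 6.07% of all windows. The windows of Acaca, Elovl6, Insig2 and Srebf1, which were also called with Dex, held none of the 4 motifs. The Srebf1 window lies at the start of the transcript counted in WT cells (chr11:60220627). Srebf1 was called in W718S/Y722S cells, where the transcript counted starts at chr11:60210471, and the promoter of that transcript was not searched. These are letter matches, and no binding was measured.

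The libraries held 24.03 to 43.11 M reads, of which 16.47 to 31.48 M were counted in exons. The lines answered the hormone: Per1, a clock gene and direct GR target, averaged 3313 ± 65.6 normalised reads with Dex and 361.4 ± 28.6 with vehicle in WT cells (SD, n = 3 each), a log2 change of 3.20, and the mutant lines changed by 2.13 (P631A), 2.95 (W718E), 3.11 (P643A) and 3.06 (W718S/Y722S) on the log2 scale. The kinase gene Sgk1 changed by 1.08, 1.41, 1.88 and 1.57 in the same order, against 3.94 in WT cells, and Tsc22d3, which encodes the leucine zipper protein GILZ, by 1.21, 1.28, 2.12 and 1.73, against 2.55 in WT cells. The label of an epithelial tumour was only partly borne out by the markers: Krt8 ranged from 13.9 to 48.9 normalised reads, Epcam was at 0 in 29 of 34 libraries, and the mesenchymal gene Vim ranged from 57700 to 81400. Of the markers of lipid-making cell types, Adipoq reached at most 3.27, Plin1 6.81, Cidec 51.4 and Alb 13.4 reads. In 4 groups 1 library stood apart from its replicates, namely WT Dex 1, P631A Dex 1, W718E vehicle 3 and W718S/Y722S Dex 1. The chi-square between W718S/Y722S Dex 1 and each of the other 4 averaged at most 12.2 per gene, against 1.20 to 2.86 among those 4. Close pairs were WT Dex 2 and 3, with 1.27 per gene, and in W718S/Y722S cells Dex 2 and 3, Dex 4 and 5, and vehicle 2 and 3, with 1.20 to 1.31, where sampling noise alone gives about 1.

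Values below are normalised read counts, that is, read counts recovered from the deposited log2 values and divided by the library's size factor within its table. Log2 changes are Dex minus vehicle on log2(normalised count + 1) with their standard errors, and a gene was called where limma on the deposited log2 values gave a Benjamini-Hochberg adjusted p under 0.05 over all genes tested in that line.

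Before any hormone, most of the pathway was strongly expressed. In WT vehicle cells the fatty acid desaturase Scd2 stood highest, with 23400, 24900 and 25100 normalised reads per kb of exon as its lowest, median and highest values, followed by its paralogue Scd1 with 7090, 7310 and 7580. The SREBP retention protein Insig1 came next with 5010, 5120 and 5150. Hmgcs1, which makes the precursor of mevalonate, had a median of 4660 and Fdps, which makes farnesyl diphosphate, 3820. At the low end, Tm7sf2, a sterol reductase, had a median of 74.2 and Idi1, the isopentenyl diphosphate isomerase, 168. The efflux pumps were barely detected: Abca1 had a median of 0.72 and Abcg1 of 0.605 reads per kb, which are single-digit to low double-digit read counts per library. Along the order of 34 levels, the ranges of neighbours overlapped in 5 of 33 pairs, those of Pmvk and Dhcr7, Lss and Hsd17b7, Hsd17b7 and Mvk, Acaca and Stard4, and Abca1 and Abcg1. Paralogues such as Scd1 and Scd2 share sequence, and how reads that fit both were counted is not given in the sources used here.

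**Figure D1:**
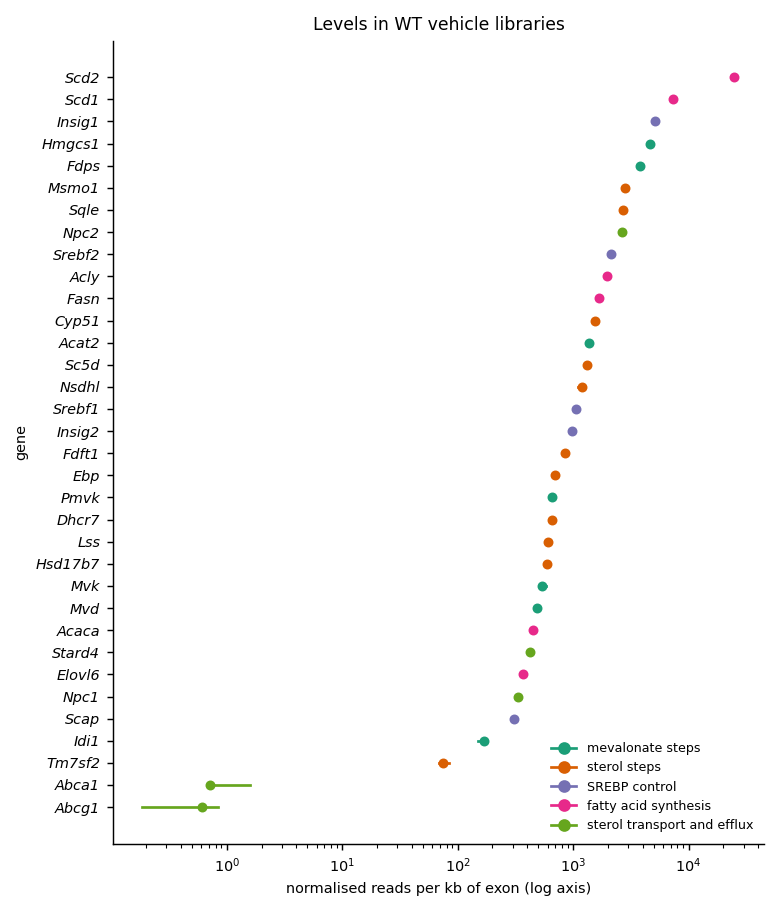
Levels of the 34 genes in the 3 WT vehicle libraries, in normalised reads per kb of exon on a log axis; points are medians, lines run from the lowest to the highest library, and colours mark the gene's role. Scd2 (median 24900) stood highest and Abca1 and Abcg1 (0.72 and 0.605) lowest.

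Dex changed few of the 34 genes, and by little. Across the 5 lines 10 members were called at least once, mostly downwards, and the one called in most lines was Insig1, which fell in WT, P643A and W718S/Y722S cells. In WT cells 33 members were tested and 3 fell (Sqle, Insig1 and Elovl6), which is 9.09% of them, against 2.74% of all 12626 genes tested called lower. None of them was called higher, against 3.96% of all genes. In P643A cells 3 of 32 members fell (Insig1, Acaca and Fasn) and 1 rose (Npc1), or 9.38% and 3.12%, against 2.15% and 2.63% of all 12597 genes. In W718S/Y722S cells 5 of 32 fell (Lss, Srebf1, Insig1, Insig2 and Scd1) and 1 rose (Npc1), or 15.6% and 3.12%, against 2.24% and 2.55% of all 12436 genes. Irrespective of calls, all Dex libraries lay below all vehicle libraries for 2 of 32 members in P631A, 6 of 34 in W718E, 6 of 32 in P643A, 4 of 32 in W718S/Y722S and 6 of 33 in WT cells, where 5.36%, 5.93%, 9.45%, 3.05% and 10% of all tested genes did. They lay above for 3, 2, 4, 0 and 5 members in the same order of lines, where 5.7%, 5.79%, 9.87%, 3.22% and 11.3% of all tested genes did.

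In P631A cells limma called none of 32 members, where it called 0.197% of all 12691 genes higher and 0.0236% lower; 2 members had an unadjusted p under 0.05, and limma with voom weights also called none. In W718E cells none of 34 members was called, against 0.476% higher and 0.0476% lower of all 12598 genes, with 3 members at an unadjusted p under 0.05 and none called with voom weights. Same-numbered Dex and vehicle libraries of the W718E line deviated together, and with the replicate number as a block limma called Fasn lower (adjusted p = 0.00336) and Scd1 higher (adjusted p = 0.0429). The block raised the genes called in that line from 66 to 288 of all 12598. The median change over the tested members on the log2 scale was 0.03 for P631A, -0.01 for W718E, 0.00 for P643A, -0.04 for W718S/Y722S and -0.01 for WT cells, while over all tested genes it lay between -0.0019 and 0.0013. Without W718S/Y722S Dex 1, 9 members were called lower in that line, with Pmvk, Srebf2, Acly and Fasn added. Without WT Dex 1, Scd1 and Scd2 were called higher and Fasn lower in WT cells.

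**Figure D2:**
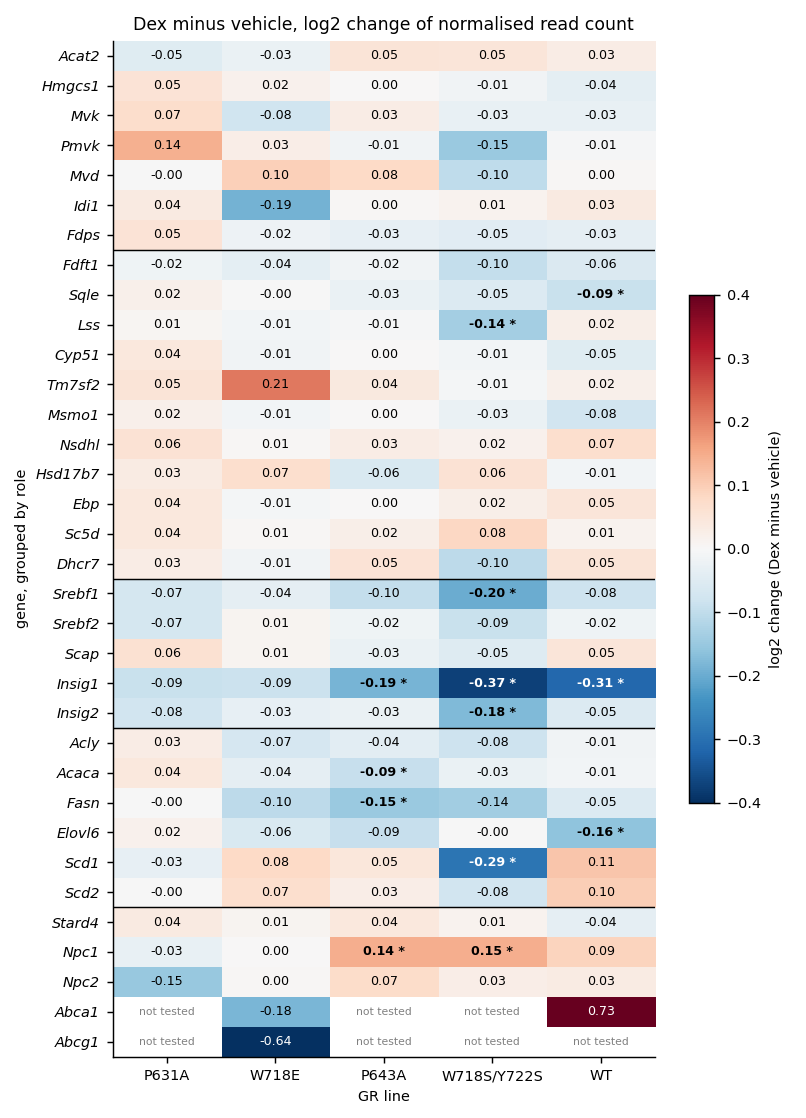
Log2 change of the normalised read count, Dex minus vehicle, for each of the 34 genes (rows, grouped by role from mevalonate steps at the top to transport and efflux at the bottom) in the 5 lines (columns); bold values with an asterisk were called at an adjusted p under 0.05, and colours stop at 0.4 on either side. Of 163 tested changes 139 lay within 0.1 of 0, and Insig1 was below 0 in all 5 lines. The Abca1 and Abcg1 values rest on low read counts.

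None of the 7 mevalonate genes was called in any line. They carry acetyl-CoA to farnesyl diphosphate: Acat2, the thiolase, Hmgcs1, the kinases Mvk and Pmvk, the decarboxylase Mvd, Idi1 and Fdps. Their log2 changes ran from -0.05 to 0.14 for P631A, -0.19 to 0.10 for W718E, -0.03 to 0.08 for P643A, -0.15 to 0.05 for W718S/Y722S and -0.04 to 0.03 for WT cells. The tables counted Hmgcs1 over 1 transcript in the WT, P631A and W718S/Y722S lines and over another in the W718E and P643A lines.

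Among the 11 sterol genes, Sqle and Lss were called, in 1 line each. Sqle, squalene epoxidase, a rate-limiting step after mevalonate (chr15:59315092-59331193, plus strand), had 7329, 7514 and 7301 normalised reads in WT Dex libraries, against 7798, 7905 and 7842 in WT vehicle libraries. All 3 Dex libraries lay below all 3 vehicle libraries, and the log2 change of -0.09 ± 0.03 stood at the edge of the threshold (adjusted p = 0.04995, limma). The call was lost on leaving out any of 5 of the 6 libraries, all but Dex 1, with adjusted p up to 0.195, without the filter on low values (0.0719) and with the closest libraries averaged (0.111). In the other lines the Sqle groups overlapped, with log2 changes between -0.05 and 0.02.

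Lss, lanosterol synthase, which closes the sterol rings (chr10:76531605-76557139, plus strand), had 2188, 2035, 1972, 1978 and 1942 reads in W718S/Y722S Dex libraries, against 2238, 2167, 2154, 2189 and 2363 in W718S/Y722S vehicle libraries. Only Dex 1 reached into the vehicle range. The log2 change was -0.14 ± 0.04 (adjusted p = 0.0375, limma); it was lost on leaving out any of 8 of the 10 libraries (adjusted p up to 0.121) and with the closest libraries averaged (0.244), and the adjusted p was 0.000553 without Dex 1. The other 9 sterol genes, Fdft1, Cyp51, Tm7sf2, Msmo1, Nsdhl, Hsd17b7, Ebp, Sc5d and Dhcr7, were called in no line, and the farthest change among them was 0.21 ± 0.12 for Tm7sf2 in W718E cells, at 89.37 ± 4.46 reads with Dex and 77.27 ± 6.77 with vehicle (SD, n = 3 each).

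Insig1 gave the clearest response. It encodes the endoplasmic reticulum protein that retains the SREBP escort and is itself an SREBP target (chr5:28071412-28078662, plus strand). In WT cells the Dex libraries had 10665, 11898 and 11720 reads, against 14027, 14312 and 14257 in the vehicle libraries. The groups did not overlap, and Insig1 fell by 19.6%, a log2 change of -0.31 ± 0.03 (adjusted p = 2.78e-06, limma). In W718S/Y722S cells the Dex libraries had 3603, 3597, 3513, 3218 and 3274 reads, against 4664, 4192, 4211, 4404 and 4836 in the vehicle libraries. Again the groups did not overlap, and Insig1 fell by 22.8%, a log2 change of -0.37 ± 0.04 (adjusted p = 1.36e-05, limma). In P643A cells it had 7986, 8139 and 7624 reads with Dex, against 9349, 8546 and 9114 with vehicle, with no overlap, and it fell by 12% (-0.19 ± 0.03, adjusted p = 0.000151, limma). These 3 calls held on leaving out each library in turn, and the P643A call was lost without limma's variance trend (adjusted p = 0.062).

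In W718E cells Insig1 had 6953, 6882 and 6599 reads with Dex, against 7283, 7373 and 7039 with vehicle. The Dex libraries lay below the vehicle libraries here too, but by less, with a change of -0.09 ± 0.03 (adjusted p = 0.776, limma; 0.0735 with the replicate block). In P631A cells it had 10004, 11227 and 11000 reads with Dex, against 11644, 11205 and 11378 with vehicle, and the groups overlapped (-0.09 ± 0.05, adjusted p = 0.916, limma). The responses were then compared directly, as the mutant's Dex response minus that of WT, with the WT libraries shared by all 4 comparisons. The Insig1 response of W718E cells was 0.23 ± 0.05 above that of WT cells (adjusted p = 0.0238, limma), the one member called higher there, or 2.94% of 34, against 0.513% of all 12866 genes called higher and 1.28% lower. This call was lost on leaving out any of 6 of the 12 libraries, all 3 WT vehicle, W718E vehicle 1, W718E Dex 1 or W718E Dex 2, with adjusted p up to 0.0886, and without the variance trend (adjusted p = 0.186). The Insig1 difference was 0.23 ± 0.06 in P631A (adjusted p = 0.0807), 0.13 ± 0.05 in P643A (adjusted p = 0.38) and -0.06 ± 0.07 in W718S/Y722S cells (adjusted p = 0.803), all by limma. The P631A difference was called without P631A Dex 1.

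**Figure D3:**
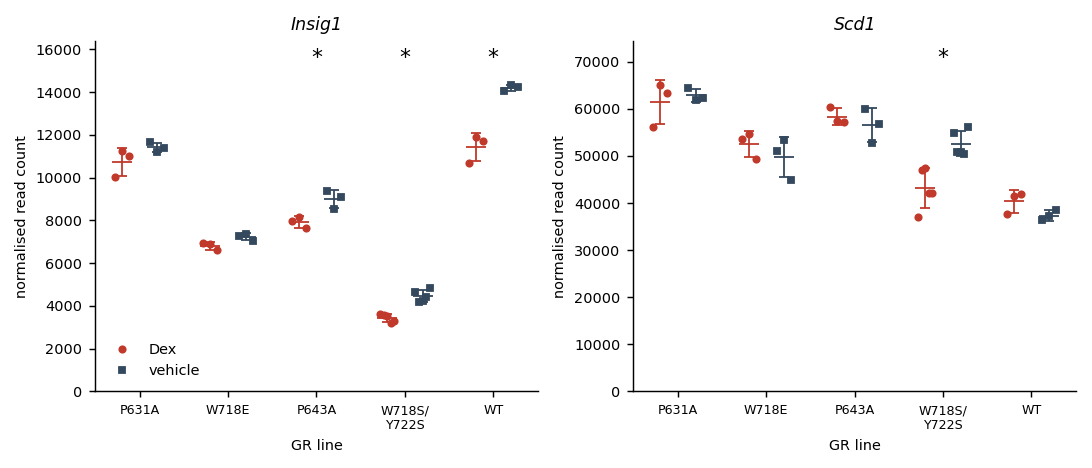
Normalised read counts of Insig1 and Scd1 in every library, Dex (red circles) left of vehicle (blue squares) in each of the 5 lines; bars are the mean ± SD (n = 3, or 5 in W718S/Y722S), the count axis starts at 0, and asterisks mark the lines with a call. Insig1 with Dex lay below vehicle without overlap in W718E, P643A, W718S/Y722S and WT cells, and Scd1 was below vehicle in W718S/Y722S cells, with 37091 to 47417 against 50444 to 56191 reads.

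Insig2 and Srebf1 were called in W718S/Y722S cells. Insig2, the second retention protein (chr1:121304353-121328024, minus strand), had 1613, 1928, 1946, 1894 and 1861 reads with Dex, against 2088, 2052, 2074, 2165 and 2053 with vehicle in those cells. The groups did not overlap, with Dex 1 lowest, and the log2 change was -0.18 ± 0.04 (adjusted p = 0.0186, limma); without vehicle 4 the adjusted p was 0.0515, and with the closest libraries averaged it was 0.0709. Srebf1, which encodes the SREBP-1 factors that drive fatty acid synthesis (chr11:60199084-60210471, minus strand, in the mutants' tables), had 4865, 5494, 5433, 5223 and 5292 reads with Dex, against 6494, 5802, 5813, 5846 and 6258 with vehicle. It fell by 12.9% without overlap (-0.20 ± 0.04, adjusted p = 0.00339, limma), and the call held on leaving out each library. Elsewhere the Srebf1 change was -0.07 ± 0.04 (P631A), -0.04 ± 0.03 (W718E), -0.10 ± 0.03 (P643A, adjusted p = 0.0573, limma) and -0.08 ± 0.03 in WT cells, where the table counted a longer transcript starting at chr11:60220627. Srebf2, the factor that drives cholesterol synthesis, and Scap were called in no line, with changes between -0.09 and 0.06.

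Fatty acid synthesis genes were called in 3 lines: Acaca and Fasn in P643A, Scd1 in W718S/Y722S and Elovl6 in WT cells. Fasn, fatty acid synthase, which builds palmitate (chr11:120805958-120824547, minus strand), had 32192, 30341 and 32492 reads in P643A Dex libraries, against 35036, 35017 and 35262 in P643A vehicle libraries. It fell by 9.81% without overlap (-0.15 ± 0.03, adjusted p = 0.000290, limma), and the call held on leaving out each library. In W718E cells it had 31370, 30539 and 32576 reads with Dex, against 33367, 33779 and 34413 with vehicle, again without overlap (-0.10 ± 0.03, adjusted p = 0.530, limma; 0.00336 with the replicate block). The W718S/Y722S change was -0.14 ± 0.05, and the groups overlapped (adjusted p = 0.110, limma): Dex had 30581, 27054, 26647, 27338 and 27482 reads, and vehicle 32156, 30843, 31220, 27021 and 31916. Dex 1 stood high and vehicle 4 low in their groups. The Fasn change was -0.00 ± 0.06 in P631A and -0.05 ± 0.04 in WT cells.

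Acaca, acetyl-CoA carboxylase, which supplies malonyl-CoA (chr11:84195438-84401651, plus strand), had 6324, 6349 and 6458 reads with Dex, against 6726, 6880 and 6767 with vehicle in P643A cells. All 3 Dex libraries were lower, with a log2 change of -0.09 ± 0.03 (adjusted p = 0.0454, limma), and the call was lost on leaving out any 1 of the 6 libraries (adjusted p 0.0657 to 0.185) and without the filter on low values (0.0752). Elovl6, which elongates palmitate (chr3:129532386-129638493, plus strand), had 2136, 2026 and 1979 reads in WT Dex libraries, against 2327, 2295 and 2243 in WT vehicle libraries. It fell by 10.6% without overlap (-0.16 ± 0.03, adjusted p = 0.00469, limma), and held on leaving out each library. Elsewhere its change was 0.02 ± 0.04 (P631A), -0.06 ± 0.03 (W718E), -0.09 ± 0.03 (P643A) and -0.00 ± 0.04 (W718S/Y722S).

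Scd1, stearoyl-CoA desaturase, which makes oleate (chr19:44394450-44407709, minus strand), answered differently in 2 lines. In W718S/Y722S cells the Dex libraries had 37091, 47006, 47417, 42092 and 42090 reads, against 54959, 50748, 50833, 50444 and 56191 in the vehicle libraries. The groups did not overlap, and Scd1 fell by 18.3% (-0.29 ± 0.06, adjusted p = 0.00305, limma); the call held on leaving out each library. In WT cells it had 37606, 41580 and 42028 reads with Dex, against 36303, 37171 and 38550 with vehicle, with overlap and a change of 0.11 ± 0.04 (adjusted p = 0.0827, limma). Its paralogue Scd2 changed by 0.10 ± 0.04 in WT cells (adjusted p = 0.0566 on the deposited values and 0.16 on recovered counts, limma). In W718S/Y722S cells Scd2 changed by -0.08 ± 0.04. The Scd1 response of W718S/Y722S cells minus that of WT cells was -0.40 ± 0.09 on the log2 scale (adjusted p = 0.0108, limma). It was the one member called there, 3.03% of 33, against 1.29% of all 12838 genes called lower and 0.452% called higher. Without WT Dex 3 the adjusted p was 0.0531, and counting the closest libraries as 1, WT Dex 2 and 3 among them, it was 0.0661; without the variance trend it was 0.0831. The Scd2 difference was -0.18 ± 0.06 (adjusted p = 0.176, limma). For the other mutants the Scd1 difference was -0.15 ± 0.08 (P631A), -0.03 ± 0.08 (W718E) and -0.07 ± 0.06 (P643A). Of the P631A differences no member was called, against 0.527% higher and 1.46% lower of all 12902 genes, with 6 members at an unadjusted p under 0.05. Of the P643A differences none was called either, against 0.59% higher and 0.986% lower of all 12884 genes, with 1 member at an unadjusted p under 0.05. With voom weights none was called in these 2 comparisons.

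**Figure D4:**
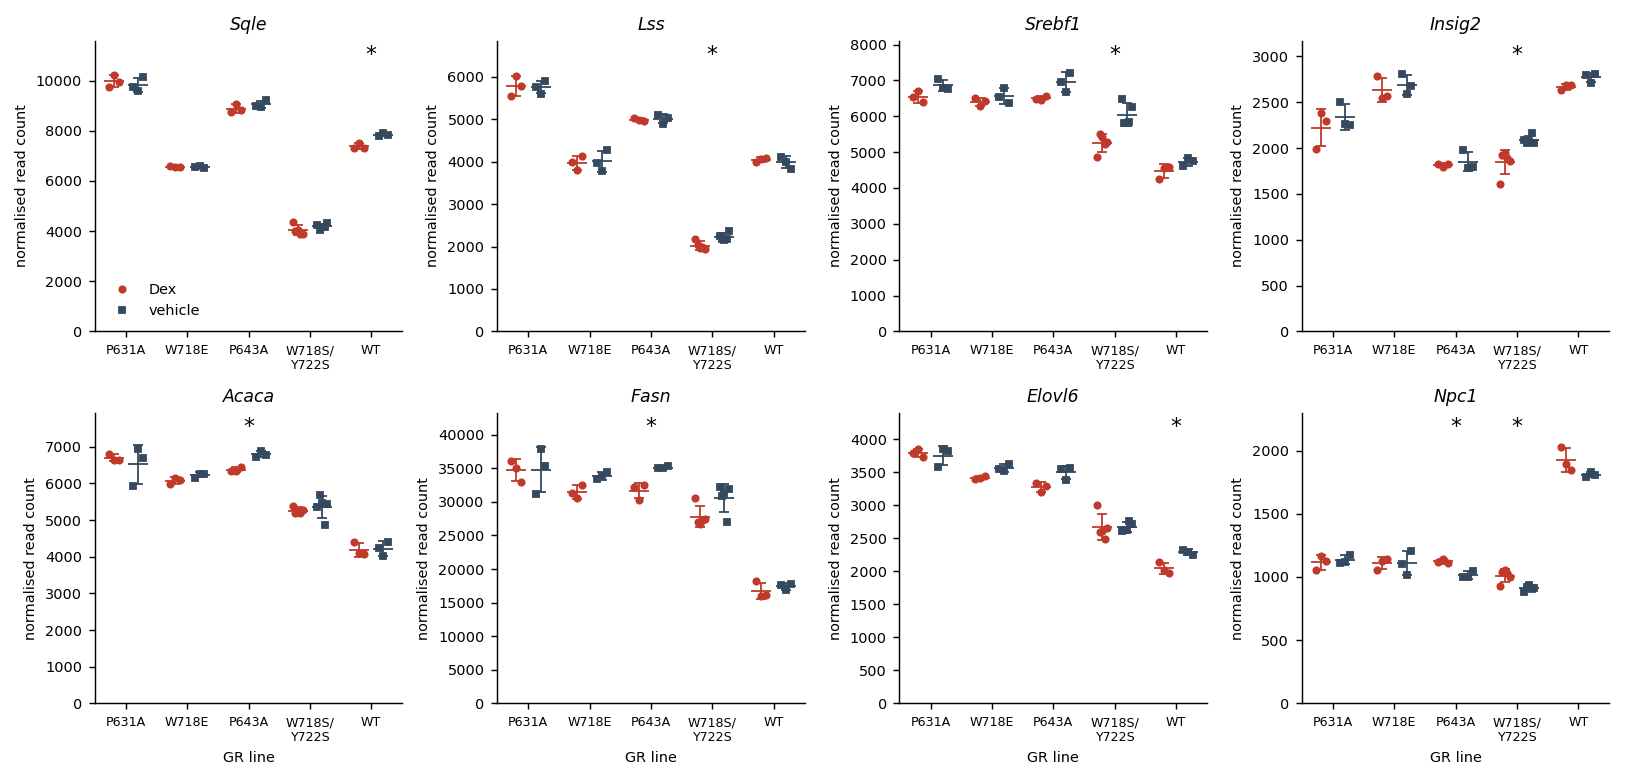
Normalised read counts of the other 8 genes called in at least 1 line, Dex (red circles) left of vehicle (blue squares); bars are the mean ± SD (n = 3, or 5 in W718S/Y722S), count axes start at 0, and asterisks mark the lines with a call. Counts are scaled within each line's table, so heights are to be compared within a line; in P643A cells Fasn had 30341 to 32492 reads with Dex and 35017 to 35262 with vehicle. Srebf1 was counted over another transcript in the WT table.

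Of the transport genes, Npc1 was the only member called higher with Dex. It carries cholesterol out of lysosomes (chr18:12189694-12236386, minus strand). In P643A cells it had 1118, 1144 and 1110 reads with Dex, against 998, 1001 and 1050 with vehicle, a rise of 10.6% without overlap (0.14 ± 0.04, adjusted p = 0.0309, limma). The W718S/Y722S libraries had 927, 1043, 1052, 1033 and 1001 reads with Dex, against 883, 921, 940, 908 and 913 with vehicle; only Dex 1 reached into the vehicle range (0.15 ± 0.04, adjusted p = 0.0329, limma). Neither call held on leaving out each library. The P643A call was lost without any of 5 of 6 (adjusted p up to 0.132, limma). The W718S/Y722S call was lost without any of 8 of 10 (up to 0.0985), without the filter on low values (0.0558) and with the closest libraries averaged (0.236). Without Dex 1 its adjusted p was 0.000704 (limma). In WT cells Npc1 had 2032, 1896 and 1845 reads with Dex, against 1788, 1829 and 1805 with vehicle, also without overlap and without a call (0.09 ± 0.04, adjusted p = 0.212, limma). Npc2, its lysosomal partner, and the sterol carrier Stard4 were called in no line. Abca1 passed the filter on low values in WT and W718E cells and Abcg1 in W718E cells alone. Abca1 had 11, 20 and 21 recovered reads in WT Dex libraries and 9, 8 and 15 in WT vehicle libraries, and its change of 0.73 was not called (adjusted p = 0.295, limma).

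A list of 40 further lipid genes, none of them a member, was read beside these, and 37 of them were tested in every line. In P643A cells 2 rose and 3 fell, or 5.41% and 8.11%, against 2.63% and 2.15% of all genes. In W718S/Y722S cells none rose and 4 fell (10.8%), against 2.55% and 2.24% of all genes. For WT cells the counts were 1 higher and 3 lower, or 2.7% and 8.11%, against 3.96% and 2.74% of all genes. In P631A and W718E cells limma called none. Lpin1, a phosphatidate phosphatase, and Mylip, a liver X receptor target that degrades lipoprotein receptors, fell in WT, P643A and W718S/Y722S cells. Mylip averaged 1643 ± 99.1 reads with Dex and 2031 ± 52.7 with vehicle in WT cells (SD, n = 3 each; log2 change -0.31, adjusted p = 2.67e-05, limma). Lpin1 averaged 866.3 ± 19.1 with Dex and 1088 ± 57.8 with vehicle in W718S/Y722S cells (SD, n = 5 each; log2 change -0.33, adjusted p = 1.94e-05, limma). Acsl3, which activates fatty acids, fell in WT and P643A cells, and Mid1ip1, a partner of acetyl-CoA carboxylase, and the desaturase Fads2 fell in W718S/Y722S cells. Elovl5 rose in WT cells, and Acss2 and Rxra rose in P643A cells.

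Without hormone the lines differed in the level of many of these genes. Over the medians of the 5 lines, the highest vehicle level per kb was 3.34 times the lowest for Npc2 and 2.88 times for Hmgcs1. It was 2.56 times for Insig1, 2.34 times for Msmo1 and 2.24 times for Fasn. The Hmgcs1 extremes, in P631A and W718S/Y722S cells, were counted over the same transcript. Abcg1, at low read counts, had a ratio of 15.4. Vehicle levels were set side by side with size factors over all 34 libraries; they are a description, without a test, since each line has 1 table and the WT libraries enter all 4 comparisons. Members counted over another transcript than in WT were left out, which removed Srebf1 throughout and Hmgcs1 in W718E and P643A. In P631A cells 21 of 32 members lay above WT with no overlap (65.6%) and 5 below (15.6%), where 35.9% of all 12517 genes lay above and 36% below. In W718E cells 9 of 32 lay above (28.1%) and 14 below (43.8%), against 37.9% and 36.8% of 12484 genes. Exon-count scaling, here and below, used exon counts without the ribosomal RNA gene Rn45s. With it 12 lay above and 10 below, against 44.2% and 30.9% of all genes. In P643A cells 18 of 31 lay above (58.1%) and 10 below (32.3%), against 38.4% and 39.1% of 12469 genes. In W718S/Y722S cells 6 of 32 lay above (18.8%) and 23 below (71.9%), against 36% and 35.7% of 12428 genes. The ribosomal RNA gene Rn45s took 9.949 to 11.34% of exon reads in WT libraries and 13.84 to 18.31% in the mutant ones, and its part in these differences was not tested. In bulk RNA, fewer cells expressing a gene and less RNA per cell cannot be told apart.

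The roles went different ways. In single lines 35.9 to 38.4% of all genes lay above WT with no overlap and 35.7 to 39.1% below. With exon-count scaling these shares were 41 to 44.8% and 28.1 to 33.5%. The cholesterol side was lower in W718S/Y722S cells: 6 of 7 mevalonate genes and 10 of 11 sterol genes lay below WT with no overlap, with medians of -0.55 and -0.57 on the log2 scale. Among them Hmgcs1 had 2110, 2170 and 2340 reads per kb as its lowest, median and highest in W718S/Y722S vehicle cells, against 4630, 4660 and 4690 in WT vehicle cells. Msmo1, a sterol methyl oxidase, had 1260, 1350 and 1410, against 2750, 2830 and 2840. In P631A cells all 7 mevalonate genes and 6 of 11 sterol genes lay above WT, with medians of 0.42 and 0.15. In W718E cells 1 of 6 mevalonate genes lay above and 1 below (median -0.03), and in P643A cells 5 of 6 lay above and 0 below (0.24). With exon-count scaling 2 mevalonate genes lay above and 0 below in W718E, and 6 above and 0 below in P643A cells. Among the sterol genes 8 of 11 lay below in W718E cells (median -0.19), and 5 lay above and 5 below in P643A cells. These sterol counts moved with exon-count scaling, which put 9 above and 0 below in P631A, 2 above and 6 below in W718E, and 6 above and 2 below in P643A cells; Sc5d in P631A and Ebp in W718E cells turned from below WT to above it.

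Most fatty acid synthesis genes lay above WT with no overlap in each of the 4 mutant lines. These were all 6 genes for P631A, 5 of 6 for W718E and P643A and 4 of 6 for W718S/Y722S cells. The role's medians were 0.61, 0.52, 0.57 and 0.62. Scd2 lay below WT in W718E (log2 ratio -0.18) and W718S/Y722S cells (-0.19). It overlapped WT in P643A cells, as Acly did in W718S/Y722S cells. With exon-count scaling 6, 5, 5 and 5 genes lay above and 0 below. Of all genes 35.9 to 38.4% lay above WT in single lines, and 41 to 44.8% with exon-count scaling. Fasn ranked first above WT in P631A and W718S/Y722S cells, behind Abcg1 in W718E and behind Pmvk in P643A cells: its median was 3200 (P631A), 3270 (W718E), 3200 (P643A) and 3770 (W718S/Y722S) reads per kb, against 1680 in WT vehicle cells. Acaca had medians of 669, 669, 680 and 725 in the same order, against 447 in WT. Scd1 had 11600, 10200, 10600 and 12600, against 7310 in WT. The phosphomevalonate kinase gene Pmvk went with them, with medians of 1210, 1110, 1370 and 863, against 661 in WT.

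Insig1 and the lysosomal genes lay below WT in every mutant line. Insig1 had medians of 3860 (P631A), 2650 (W718E), 3110 (P643A) and 2000 (W718S/Y722S) reads per kb, against 5120 in WT vehicle cells, and its mean was 0.397 of the WT mean in W718S/Y722S cells. Npc2, which binds cholesterol inside lysosomes, had medians of 940, 950, 790 and 910 in the same order, against 2640 in WT. Npc1 had 193, 205, 174 and 211, against 331 in WT. Abca1, also at low read counts, lay below WT in P643A and W718S/Y722S cells. Abcg1 lay above WT in W718E cells, with 2.03, 2.59 and 5.15 reads per kb against 0.186, 0.605 and 0.844 in WT. These Abcg1 levels rest on 14, 13 and 28 recovered reads in the W718E vehicle libraries and 6, 4 and 1 in the WT vehicle libraries.

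**Figure D5:**
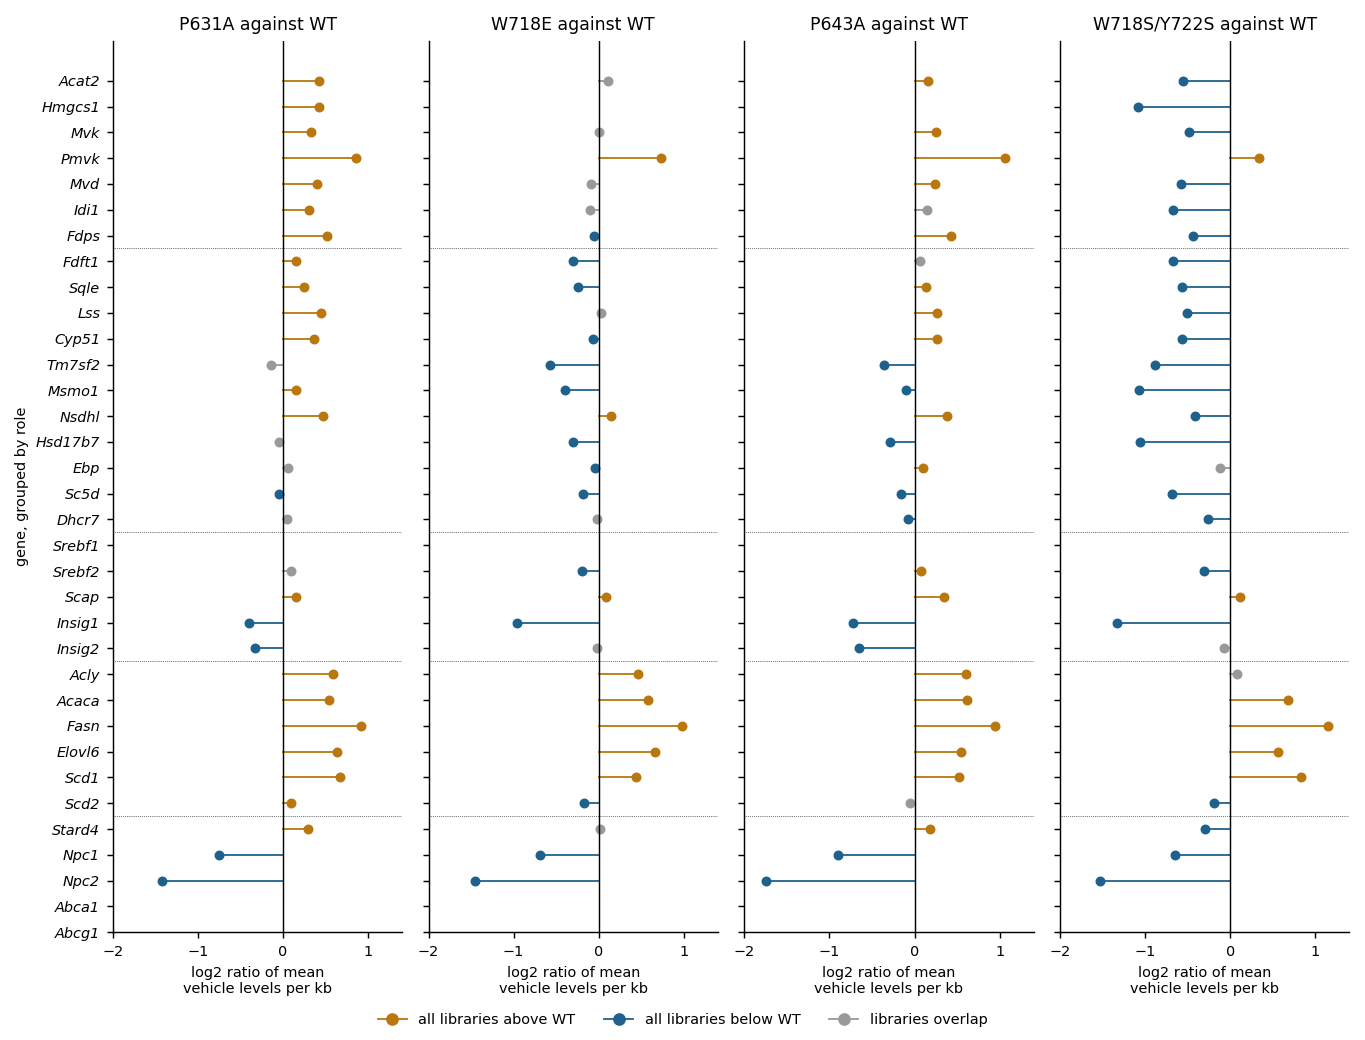
Log2 ratio of the mean vehicle level per kb, each mutant line over WT, for genes grouped by role. Abca1 and Abcg1, at low read counts, are not drawn, nor are genes counted over another transcript than in WT. Orange points have all libraries above WT, blue all below, and grey overlap. Fasn, Acaca, Elovl6 and Scd1 lay right of 0 in all 4 panels, and Scd2 in the P631A panel alone. Npc1, Npc2 and Insig1 lay left of 0 in all 4. In W718S/Y722S cells the mevalonate and sterol genes lay left of 0 except Pmvk.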

How the data were processed

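Total RNA of 34 libraries was sequenced. Per the file headers, reads in exons of RefSeq transcripts (mm10) were counted with HOMER, 1 transcript per gene; the submitters' processing notes name cutadapt, STAR 2.7.0f and HOMER 4.10.4. The tables hold log2 values, which the authors normalised separately in each of the 5 tables before they were deposited. The authors' deposited log2 fold changes and p-values compare Dex with vehicle; the fold changes served only to check the recovery below, and the p-values were not used.

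The deposited log2 values are shrunken towards each gene's mean. Read counts were recovered from them: at a mean under 100 reads, at least 99.9884% of values came out whole within 0.1, and at 100 to 1000 reads at least 99.7488%. Dex was tested against vehicle in each line with limma 3.58.1 (R 4.3.3, variance trend) on the deposited log2 values. A gene was tested where its unlogged value reached 10 in no fewer libraries than the smaller of its 2 groups holds, and called at a Benjamini-Hochberg adjusted p under 0.05. Printed log2 changes, and the differences between lines, come from limma on log2(recovered count / size factor + 1). In W718E cells same-numbered Dex and vehicle libraries deviated together (correlations 0.103 to 0.58 over tested genes, with a lowest of 0.0291 over genes of 100 reads or more), so for that line the blocked value stands beside a result whose call it changes. The other lines did not pass this check, and their blocked values are given only with the alternatives. The alternatives were leaving out each library, the replicate block, no filter, no variance trend, another scale, scaling or pseudocount, and, added after the data were seen, voom weights and averaging the closest libraries.

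The 34 genes and the gene lists were chosen with earlier results of these data known. Genes named with values in every library are those called in any line or difference; the 3 highest and lowest levels, and per line the 3 vehicle levels farthest above and below WT, are also named. Counts carry counting error and replicate spread only.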

Additional observations from a re-analysis of the deposited data

Results flagged for a closer look

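In W718S/Y722S cells, the line with 5 libraries a group, 6 of 64 groups of values held 1 library farther from the rest than Dixon's critical value of 0.71 allows, where chance flags about 1 in 20. Hsd17b7, a sterol reductase, had 1333 normalised reads in Dex 1, and 1063 to 1073 in the other 4 Dex libraries. Insig2 had 1613 reads in Dex 1, against 1861 to 1946 in the others, and Fasn 30580 in Dex 1, against 26650 to 27480. Dex 1 is the library that stood apart from its replicates over all genes. Fasn had 27020 reads in vehicle 4, against 30840 to 32160 in the other vehicle libraries. Sc5d had 1701 reads in Dex 2, against 1560 to 1600, and Dhcr7 1276 in Dex 5, against 1187 to 1207.

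The Dex response of 2 genes differed between a mutant line and WT by limma. The log2 change of Insig1 was 0.228 higher in W718E than in WT cells (adjusted p = 0.0238), and that of Scd1 differed by -0.404 between W718S/Y722S and WT cells (adjusted p = 0.0108).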

How the results depend on the processing

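No Dex change of a called gene, and no called difference from WT, changed direction under the alternatives run. Of the values for single called members, 179 kept their side of the threshold and 54 lost it. With the replicate block the genes called were 5 in P631A (28 without it), 288 in W718E (66) and 367 for W718E minus WT (231); members called were 2 higher in WT (Scd1 and Scd2), 1 higher and 1 lower in W718E, and 5 lower in P643A cells, where Srebf1 (adjusted p = 0.0277) and Elovl6 (0.0488) were added. Srebf1 was also called in P643A cells with voom weights and with upper quartile scaling. The W718S/Y722S Lss call was lost with the replicate block (adjusted p = 0.0652, limma). Without the variance trend the genes called were 5 in P631A, 42 in W718E, 387 in P643A (602 with it), 160 for P631A minus WT (256), 149 for W718E minus WT and 113 for P643A minus WT (203), and no member remained called (0) for W718E minus WT or W718S/Y722S minus WT. Without the filter, 1 member was called higher in WT and 0 in W718S/Y722S cells. On the deposited values, 357 genes were called for W718E minus WT, 312 for P643A minus WT, and 1 member higher for P631A minus WT. With voom weights, 2 members were higher in WT and 2 lower for W718S/Y722S minus WT. With the closest libraries averaged, W718S/Y722S cells gave 273 genes (596 before) with 0 members higher and 3 lower, and W718S/Y722S minus WT gave 125 genes (224) and 0 members.

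Leaving out 1 library at a time, genes called ranged over 625 to 1238 in WT, 14 to 49 in P631A, 28 to 76 in W718E, 453 to 564 in P643A and 412 to 970 in W718S/Y722S cells. For the differences from WT they ranged over 190 to 298, 175 to 240, 158 to 222 and 153 to 350 for P631A, W718E, P643A and W718S/Y722S. Members called higher and lower ranged over 0 to 2 and 2 to 4 in WT, 0 to 1 and 2 to 4 in P643A, and 0 to 1 and 4 to 9 in W718S/Y722S cells, over 0 to 1 higher for P631A minus WT and W718E minus WT, and 0 to 2 lower for W718S/Y722S minus WT. The cause was not tested. Vehicle counts above and below WT by exon-count scaling were 25 and 4 in P631A cells, against 44.8% and 28.1% of all genes. They were 12 and 10 in W718E cells (all genes 44.2% and 30.9%), 20 and 7 in P643A cells (44.3% and 33.5%) and 7 and 22 in W718S/Y722S cells (41% and 30.8%). The larger side thus turned in W718E cells, from 14 below to 12 above, with a member median of -0.0347 against 0.0439. The share of all genes above WT moved there too, from 37.9% to 44.2%, and that below from 36.8% to 30.9%. Over all genes the median log2 ratio was 0.0665 to 0.0974 with this scaling, against -0.0117 to 0.00197 without it. Depth limits Abca1 and Abcg1, at low read counts.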
